A study of Homo sapiens with 8 samples.

Results

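The response to VRK1 knockdown that MDA-MB-231 and HT1080 cells share was taken from all 8 of the 8 arrays in the series. The 4 arrays from cells given an siRNA against VRK1 were compared with the 4 from cells given a scrambled control siRNA, with the cell line as an additive term. Each gene thereby has 1 change for both lines, given in log2 units of array intensity as siVRK1 minus control. The groups, with 2 arrays each, were MDA-MB-231 breast adenocarcinoma cells with scrambled siRNA, MDA-MB-231 cells with siVRK1, HT1080 fibrosarcoma cells with scrambled siRNA, and HT1080 cells with siVRK1. All 4 groups were grown in medium with 10% FBS and gentamicin for 24 h, received siRNA with the lipid reagent Lipofectamine RNAiMAX, and were collected 42 h after that. Both lines received the same siRNA, numbered 308, so that loss of VRK1 and other effects of this siRNA cannot be told apart. Each group is 1 established line under 1 siRNA, and the labels do not say whether replicates 1 and 2 were separate cultures. Spread among these arrays is all that the p-values rest on, and its replicate part may be technical. With line as an additive term, the error also takes in any difference between the lines in their change. That fit has 5 residual degrees of freedom, against 4 for a fit with a mean per group.

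VRK1 is a serine/threonine kinase of the nucleus that is abundant in dividing cells. It phosphorylates BANF1, the small protein that ties chromatin to the nuclear envelope, and thereby helps chromatin to detach from the envelope when a cell enters mitosis. It also phosphorylates histone H3 and transcription factors that include p53, JUN and ATF2. Genes that act in mitosis are transcribed mainly in G2 and M phase, and many of their promoters carry CCAAT boxes, bound by NF-Y, and a CHR element (TTTGAA), through which the DREAM and MYB-FOXM1 complexes act.

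The labelled lines were set against their defining markers. The keratins KRT7 (9.23 and 9.27 log2 on the MDA-MB-231 control arrays) and KRT19 (10.9 and 11.1) were far above the filter level of 6.08 log2 in MDA-MB-231, while KRT7 (5.92 and 6.01) and KRT19 (5.78 and 5.69) lay below it on the HT1080 control arrays. The keratin KRT18, also a marker expected of MDA-MB-231, was similar in both lines. It read 7.59 and 7.65 on the MDA-MB-231 control arrays and 7.51 and 7.38 on those of HT1080. N-cadherin, CDH2, stood at 10.7 and 10.8 on the HT1080 control arrays and at 6.15 and 6.11 in MDA-MB-231. Vimentin (VIM) and CD44 were above 11 log2 on all arrays, and ESR1, PGR and EPCAM were below the filter level on all of them. Among the markers expected of HT1080, the fibronectin probe FN1 (5.68 and 5.72 on the controls) and the gelatinase probe MMP2 (6.07 and 6.02) were below the filter level. ERBB2, expected to be low in MDA-MB-231, read 8.06 and 8.03 on its control arrays.

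The lines differed far more from each other than siVRK1 differed from control. Over the 9451 genes tested, cell line held 89.1% of the sum of squares and the shared siVRK1 change 3.41%. The part of the siVRK1 change that differed between lines held 1.53%, and the spread between replicate arrays 5.94%. The replicate share rests on 4 degrees of freedom and each of the others on 1, so their sizes are not directly comparable. Replicate spread also enters the other shares. Replicate arrays correlated across genes at r = 0.986 and 0.989 in MDA-MB-231 (control and siVRK1) and at 0.994 in both groups of HT1080. Replicates therefore lay further apart in MDA-MB-231, with an SD of their difference of 0.269 and 0.239 log2, than in HT1080, with an SD of 0.175 and 0.181.

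Once each line's own mean had been subtracted, the leading axis of variation, with 32.2% of the variance, put all 4 control arrays on one side (scores from -10.5 to -6.37) and all 4 siVRK1 arrays on the other (5.99 to 11.9). The next axis, with 27.3%, did not follow treatment. It separated replicate 1 (12.9 for control, 8.01 for siVRK1) from replicate 2 (-10.8 and -10.1) of MDA-MB-231 and left the HT1080 arrays between them. Control and siVRK1 arrays were thus apart in each line, beside a difference between MDA-MB-231 replicates that took up nearly as much of the variance.

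**Figure D1:**
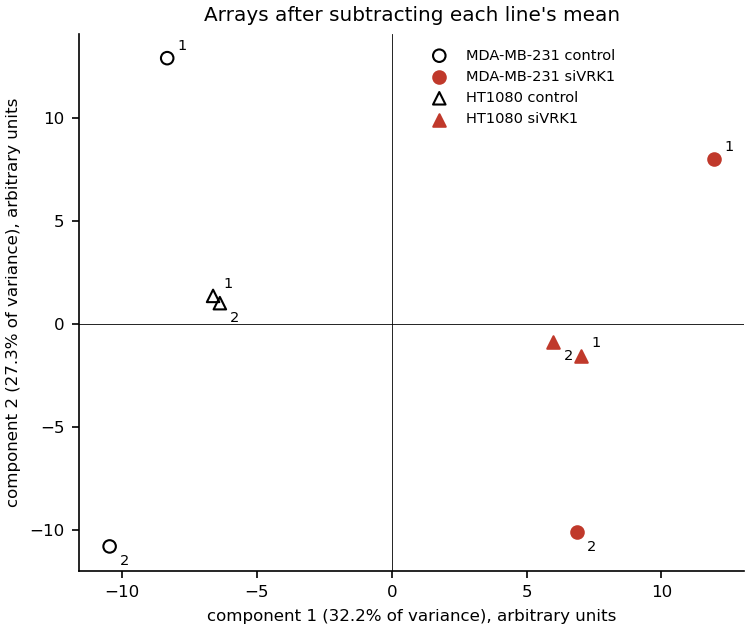
Scores of the 8 arrays on the leading 2 principal components over the 9451 genes tested, after each line's mean was subtracted (both axes in arbitrary units). Circles are MDA-MB-231 and triangles HT1080, open symbols are control and filled symbols siVRK1, and the digit is the replicate number. Component 1 separates control from siVRK1 on all 8 arrays, and component 2 separates the replicate numbers of MDA-MB-231.

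VRK1 itself was lower on every siVRK1 array. Its probe stood at 7.93 and 7.61 log2 in MDA-MB-231 controls, against 6.23 and 6.74 after siVRK1, and at 7.84 and 7.88 in HT1080 controls, against 6.57 and 6.51. All 4 siVRK1 values were below all 4 control values. The shared change was -1.30 log2 (SE 0.112, limma adjusted p = 0.000271), which left 40.6% of the control signal, background included. It was called without each of the 8 arrays in turn (largest limma adjusted p 0.00324). The arrays measure RNA from whole cultures, so a smaller share of cells with a transcript and less of it per cell cannot be told apart, here or for any other gene. None of the other 25 genes tested on a list of VRK kinases, partners and substrates was called. The nearest were MDC1, a DNA damage adaptor, at -0.31 (limma adjusted p = 0.0512), and LMNB1, lamin B1, at -0.42 (adjusted p = 0.102), while the substrates BANF1 (-0.02), JUN (-0.05) and ATF2 (0.06) had changes near 0. The paralogues VRK2 (0.14) and VRK3 (-0.09) were not called.

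Across all genes, 232 of 9451 passed a limma adjusted p under 0.05, which is 2.45% of those tested. Of these 80 rose (0.846%) and 152 fell (1.61%), and 1399 genes had an unadjusted p under 0.05. The changes were moderate. The median was 0.45 log2 among genes that rose and -0.50 among those that fell, against 0.00 over all genes tested, and the smallest called changes were 0.32 and -0.32. A change of 1 log2 (2-fold) or more was reached by 2 genes that rose and 7 that fell, and 0.5 log2 by 25 and 76. The median SE of the called genes, 0.0895 log2, was close to that of all genes, 0.0902. At the edge of the threshold, the 5 called genes with the largest adjusted p (all 0.0498) changed by 0.36 to 0.92 log2 in size, and the 5 next genes (adjusted p from 0.0501 to 0.0517) by 0.31 to 0.47.

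Every one of the 232 genes moved the same way in MDA-MB-231 and in HT1080, which an additive fit favours, while 58.9% of all genes tested did. In 231 of them the siVRK1 arrays lay beyond both control arrays of the same line, in each line. A call made from these same values favours that too, so it is not separate support. Over all genes tested, 6.97% had their siVRK1 arrays above the controls in each line and 6.77% below. The exception was NCEH1, a neutral cholesterol ester hydrolase, with MDA-MB-231 controls at 8.18 and 9.00 against 7.36 and 8.40 after siVRK1, which overlap, and HT1080 controls at 9.25 and 8.94 against 7.95 and 7.62, which do not. Its shared change of -1.01 log2 had the widest error of all called genes (SE 0.235, limma adjusted p = 0.0494), and it lost its call without any of 6 of the 8 arrays.

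The lines were also tested one at a time in a fit over all 8 arrays with a mean per group, in which both lines share 1 estimate of the spread. It called 94 genes in MDA-MB-231 (0.995% of those tested) and 29 in HT1080 (0.307%). The order turned when each line was fitted with its own spread, since the MDA-MB-231 arrays alone gave 0 calls by limma (918 genes at an unadjusted p under 0.05) and the HT1080 arrays alone 84, of which 62 were among the 232. In the fit with a common spread, 16 of the 232 shared calls were called in both lines, 43 in MDA-MB-231 but not HT1080, 7 in HT1080 but not MDA-MB-231, and 166 in neither (55 that rose and 111 that fell). Conversely 35 genes called in MDA-MB-231 and 6 called in HT1080 were not called in the additive fit. The error of the additive fit includes the difference between the lines, and its part in these missing calls was not tested. The difference between the lines was called for 0 genes (0% of those tested, smallest limma adjusted p 0.0751, with 582 genes at an unadjusted p under 0.05), and a call in a single line therefore does not show a response particular to it. The size of change was larger in MDA-MB-231 for 144 of the 232 genes (62.1%, against 52.7% of all genes tested). Median changes were 0.49 in MDA-MB-231 and 0.41 in HT1080 among genes that rose, and -0.53 and -0.49 among genes that fell.

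**Figure D2:**
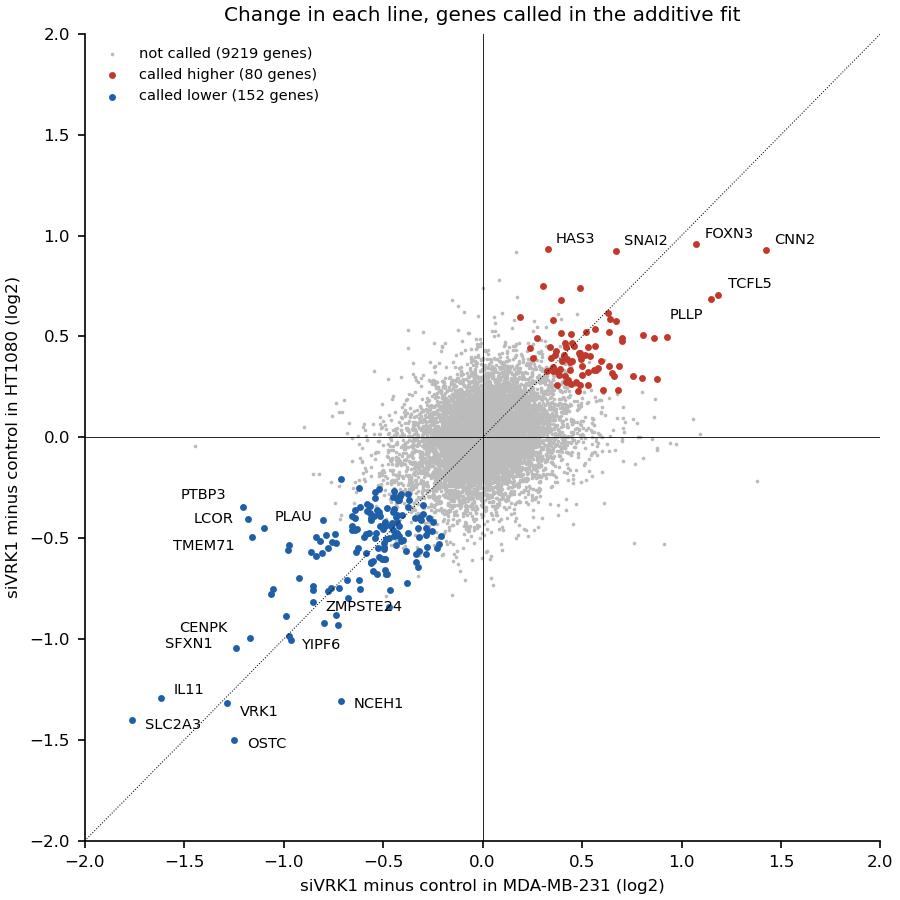
Change in MDA-MB-231 (horizontal axis, log2) against change in HT1080 (vertical axis, log2) for the 9451 genes tested, each point 1 gene. Red points are the 80 genes called higher and blue points the 152 called lower in the additive fit. The dotted line marks equal change in both lines. All called genes lie in the quadrants of like sign, and PTBP3, LCOR, TMEM71, PLAU and HAS3 lie farthest from the line among those named.

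How many genes were called rested on single arrays, those of HT1080 in particular. Leaving out MDA-MB-231 control 1 gave 112 calls and control 2 gave 218, while leaving out its siVRK1 arrays gave 108 and 144. Leaving out the HT1080 controls gave 91 calls (control 1) and 64 (control 2), and leaving out the siVRK1 arrays 83 and 95. The sign of the change did not turn for any of the 232 genes under any setting. Of the 232, 54 were called without each of the 8 arrays, 13 that rose and 41 that fell, while 10 were lost without 1 array, 168 without 2 or more, and 32 of these without any of the 8. The 54 are called stable to leaving out an array wherever they are described, and a called gene described without that remark lost its call without at least 1 array.

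**Figure D3:**
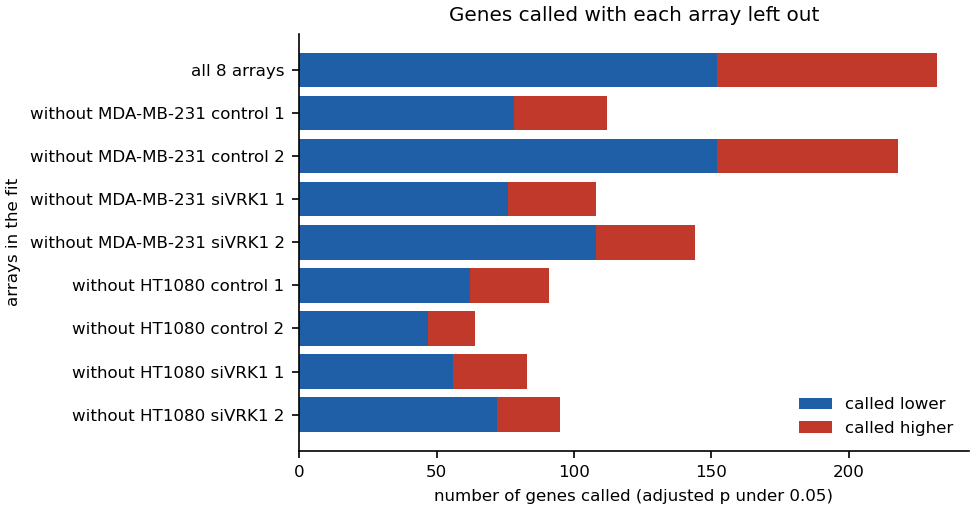
Number of genes called (limma adjusted p under 0.05, horizontal axis) with all 8 arrays and with each array left out, split into genes called lower (blue) and higher (red). The total runs from 64 without HT1080 control 2 to 218 without MDA-MB-231 control 2, against 232 with all arrays.

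The largest shared fall was that of SLC2A3, the glucose transporter GLUT3. It stood at 10.52 and 11.08 log2 in MDA-MB-231 controls and at 8.80 and 9.29 after siVRK1, and at 10.91 and 10.93 in HT1080 controls and 9.60 and 9.42 after siVRK1. No siVRK1 array came within 1 log2 of a control of its line. The change was -1.58 (SE 0.143, limma adjusted p = 0.000284) and stable to leaving out an array. With SLC2A3, 3 of 57 solute carriers and membrane transporters tested fell and none rose (5.26% called, against 2.45% of all genes). The others were SFXN1, which carries serine into mitochondria, and SLC44A1, a choline transporter. SFXN1 stood at 8.63 and 7.95 in MDA-MB-231 controls against 6.95 and 7.15, and at 8.61 and 8.54 in HT1080 controls against 7.60 and 7.47, a change of -1.14 (SE 0.130, limma adjusted p = 0.00134). SLC44A1 changed by -0.59 with little spread, from 10.09 and 10.03 to 9.51 and 9.50 in MDA-MB-231 and from 10.96 and 10.91 to 10.34 and 10.29 in HT1080 (SE 0.0699, limma adjusted p = 0.00169). SFXN1 and SLC44A1 were stable to leaving out an array. The highest member, the cholesterol exporter ABCA1, was at 0.50 and not called (limma adjusted p = 0.0783), and SLC2A1, the glucose transporter GLUT1, was at 0.07. This list and those below were chosen with earlier results of these data known, so their called shares may partly reflect that choice.

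Genes of the secretory pathway were among the next largest falls, while most members of their lists were not called. OSTC, a subunit of the oligosaccharyltransferase that adds N-glycans in the endoplasmic reticulum, read 8.41 and 8.85 in MDA-MB-231 controls against 7.06 and 7.71, and 8.83 and 9.26 in HT1080 controls against 7.75 and 7.33. Groups did not overlap in either line, and the change was -1.37 (SE 0.165, limma adjusted p = 0.00190). On the list of N-glycosylation genes 2 of 34 fell (5.88% called, against 2.45% of all genes), OSTC and the Golgi mannosyl-glycoprotein transferase MGAT2 (-0.45, adjusted p = 0.0305), and the list's median was -0.07 log2. YIPF6, a Golgi membrane protein, changed by almost the same amount in both lines, from 9.45 and 9.49 to 8.49 and 8.50 in MDA-MB-231 and from 9.64 and 9.50 to 8.43 and 8.74 in HT1080. Its shared change was -0.98 (SE 0.0851, limma adjusted p = 0.000271), and YIPF6 and OSTC were both stable to leaving out an array. Among 59 Golgi and ER trafficking genes (6.78% called), MCFD2, a cargo receptor subunit, also fell (-0.66, adjusted p = 0.0451), while the small GTPase ARF1 (0.45, adjusted p = 0.0415) and its exchange factor GBF1 (0.36, adjusted p = 0.0344) rose. A further ARF1 probe changed by only 0.13.

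KIAA1191, which encodes a putative monooxygenase, fell from 9.76 and 9.61 to 8.57 and 8.88 in MDA-MB-231 and from 9.16 and 9.33 to 8.20 and 8.28 in HT1080. The change was -0.98 (SE 0.0895, limma adjusted p = 0.000284), and a further probe of the gene gave -0.89. ZMPSTE24, the protease that matures prelamin A, fell by 0.81 log2 (SE 0.0844, limma adjusted p = 0.000849), from 10.76 and 10.97 to 9.94 and 10.09 in MDA-MB-231 and from 11.16 and 10.97 to 10.34 and 10.28 in HT1080. It was the only gene called of 41 tested for the nuclear envelope and nuclear pore (2.44%, against 2.45% of all genes). That list had a median of 0.00 log2. CD82, a tetraspanin, fell by 0.81 log2 (SE 0.114, adjusted p = 0.00448), and PRRG1, a membrane protein with a Gla domain, by 0.77 (SE 0.0720, adjusted p = 0.000332). All 4 genes were stable to leaving out an array. CLDN12, a claudin, fell by 0.81 (adjusted p = 0.0215), but lost its call without any of 4 arrays.

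**Figure D4:**
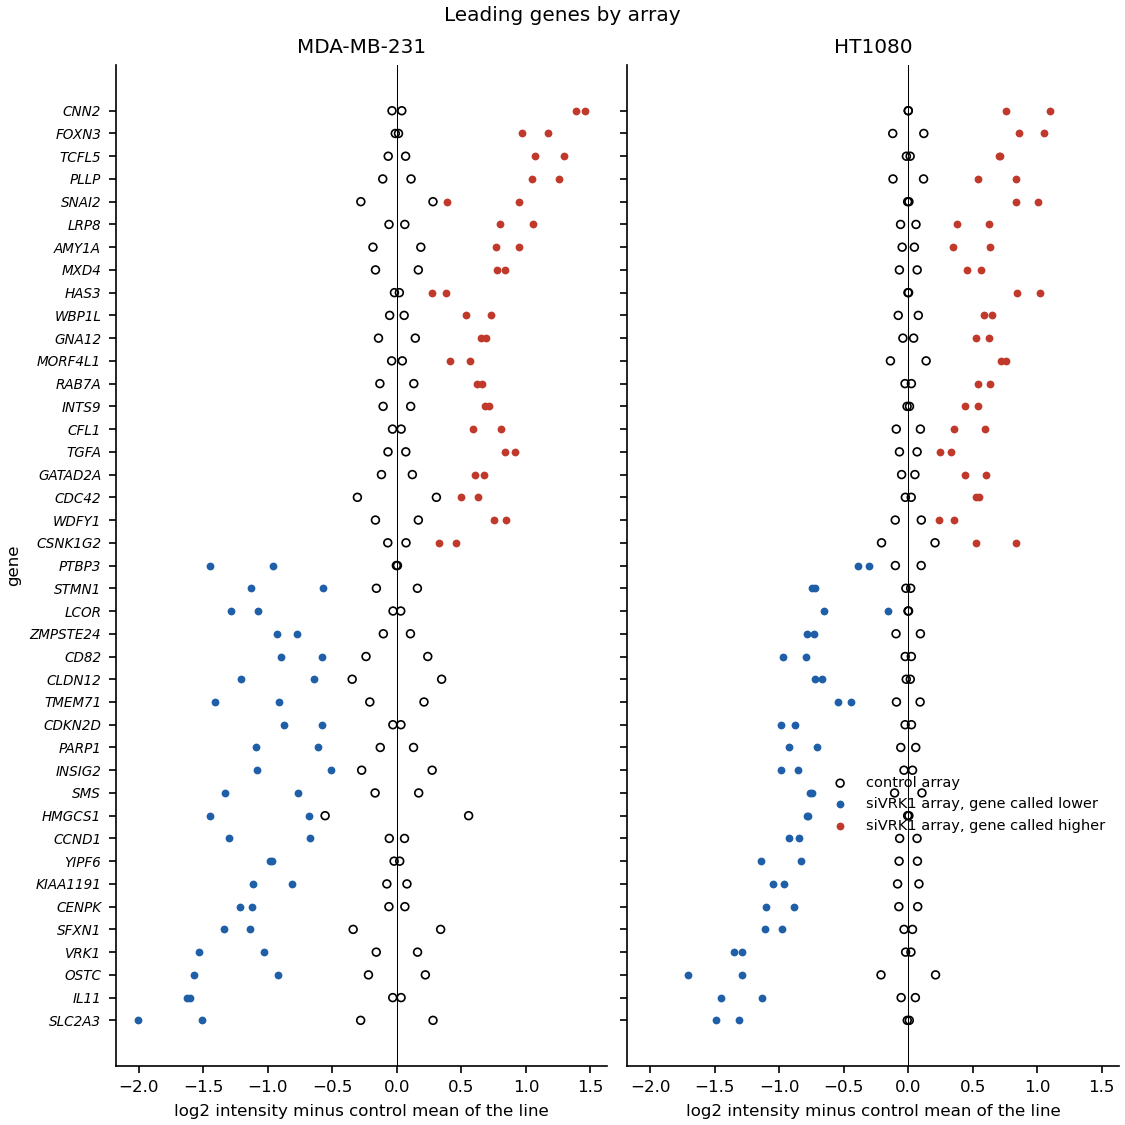
Log2 intensity of each array minus the control mean of its line (horizontal axis) for the 20 largest rises and the 20 largest falls and VRK1 (vertical axis, gene), with MDA-MB-231 on the left and HT1080 on the right. Open circles are control arrays, red filled circles siVRK1 arrays of genes called higher, and blue filled circles siVRK1 arrays of genes called lower. In each line all siVRK1 circles lie outside the pair of control circles, which is part of how these genes were chosen.

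Mitotic genes made up the largest group with a common direction. Of 69 genes tested on the list of mitosis and chromosome segregation, 26 fell and none rose, which is 37.7% of the list against 2.45% of all genes tested called in either direction. The list's median change was -0.35 log2 (MDA-MB-231 by itself -0.34, HT1080 -0.34) against 0.00 over all genes, 66 of the 69 changes were negative, and 42 members had siVRK1 arrays below both controls in each line. The called changes ran from -0.33 (NUSAP1) to -1.08 log2 (CENPK). Leaving out an array changed the number called, which was 13 and 30 when MDA-MB-231 control 1 or 2 was left out and 16 and 20 for its siVRK1 arrays. For HT1080 it was 13 and 9 when a control was left out and 10 and 13 for the siVRK1 arrays. The median lay between -0.38 and -0.28 log2 under every setting tried. The mitosis list was chosen with earlier results of these data known, so its called share may partly reflect that choice.

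CENPK, a kinetochore subunit, led the list. It stood at 9.51 and 9.38 in MDA-MB-231 controls against 8.32 and 8.22 after siVRK1, and at 9.44 and 9.59 in HT1080 controls against 8.63 and 8.41. The siVRK1 and control values were well apart in each line, and the change was -1.08 (SE 0.0856, limma adjusted p = 0.000224). NEK2, a kinase of centrosome separation, went from 9.64 and 9.40 to 8.67 and 8.85 in MDA-MB-231 and from 8.33 and 8.38 to 7.59 and 7.63 in HT1080. Its change of -0.76 (SE 0.0816, limma adjusted p = 0.000971) was nearly equal in both lines. PIMREG, a mitotic regulator, fell by 0.69 log2 (adjusted p = 0.00268), and the motor KIF14, which acts in cytokinesis, by 0.67 (adjusted p = 0.0109). BIRC5, survivin of the chromosomal passenger complex, fell by 0.64 (adjusted p = 0.0210), but its call was lost without any of 5 of the 8 arrays. The motor KIF2C, which depolymerises microtubules at kinetochores, fell by 0.61 (adjusted p = 0.00733).

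Other called members included kinases, motors and kinetochore subunits. The kinases were AURKA of the spindle poles (-0.58 log2, limma adjusted p = 0.00534, with -0.61 from a further probe), TTK of the spindle checkpoint (-0.50) and PBK (-0.58). Cyclin B2, CCNB2 (-0.55), the APC/C activator CDC20 (-0.50) and securin, PTTG1 (-0.47), act at mitotic entry and anaphase. The kinetochore subunits NDC80 (-0.40) and NUF2 (-0.37), the condensin subunit NCAPD2 (-0.41) and the passenger subunit CDCA8 (-0.52) also fell. So did the motors KIF23 (-0.52), KIF20A (-0.45), KIF11 (-0.43) and KIF4A (-0.36), and CEP55 of the midbody (-0.56). Of these, AURKA, TTK, PBK and CEP55 were stable to leaving out an array, as were CENPK, NEK2, PIMREG, KIF14 and KIF2C. CCNB2 was lost without HT1080 control 2 (limma adjusted p = 0.0653) or HT1080 siVRK1 1 (adjusted p = 0.0539), and KIF23 without the same arrays (0.0653 and 0.0585). A further KIF23 probe changed by -0.13.

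Mitotic genes that did not pass the test included some of the best known. CCNB1, cyclin B1, was at -0.44 (limma adjusted p = 0.0654), TOP2A, topoisomerase II, at -0.51 (adjusted p = 0.0646), PLK1 at -0.29 (adjusted p = 0.120) and AURKB at -0.28 (adjusted p = 0.106). The proliferation marker MKI67 was at -0.08 (adjusted p = 0.734) and the mitotic kinase CDK1 at -0.20 (adjusted p = 0.565). MKI67 lay between 6.31 and 6.63 log2 on all 8 arrays, close to the filter level. The highest member, the checkpoint gene MAD1L1, was at 0.37 (adjusted p = 0.222). It was flat in MDA-MB-231, with controls at 8.13 and 8.27 and siVRK1 at 8.21 and 8.18, and higher in HT1080, with controls at 8.88 and 8.68 and siVRK1 at 9.61 and 9.43.

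The promoter windows of the 6 called mitotic genes with the largest falls that hold a CCAAT box or a CHR element are printed to show how the elements are placed in front of genes that fell together. Each window runs from 250 bases before to 50 bases after the RefSeq transcription start on GRCh38.p14, on the strand of the gene and 5′ to 3′. Capitals mark CCAAT and TTTGAA on either strand (ATTGG and TTCAAA are their reverse complements).
CENPK (chr5:65563119-65563418, minus strand): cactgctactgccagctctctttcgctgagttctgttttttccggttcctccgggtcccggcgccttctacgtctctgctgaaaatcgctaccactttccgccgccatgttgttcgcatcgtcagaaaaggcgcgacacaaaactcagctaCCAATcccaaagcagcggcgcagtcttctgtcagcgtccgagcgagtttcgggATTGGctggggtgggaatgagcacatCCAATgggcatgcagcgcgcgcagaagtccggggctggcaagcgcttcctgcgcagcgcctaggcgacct
NEK2 (chr1:211675572-211675871, minus strand): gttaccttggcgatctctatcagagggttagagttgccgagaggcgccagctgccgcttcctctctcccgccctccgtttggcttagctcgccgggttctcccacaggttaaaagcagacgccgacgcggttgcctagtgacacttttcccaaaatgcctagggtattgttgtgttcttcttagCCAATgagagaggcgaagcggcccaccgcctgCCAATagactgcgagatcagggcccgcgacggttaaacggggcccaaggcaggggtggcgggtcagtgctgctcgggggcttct
KIF14 (chr1:200620702-200621001, minus strand): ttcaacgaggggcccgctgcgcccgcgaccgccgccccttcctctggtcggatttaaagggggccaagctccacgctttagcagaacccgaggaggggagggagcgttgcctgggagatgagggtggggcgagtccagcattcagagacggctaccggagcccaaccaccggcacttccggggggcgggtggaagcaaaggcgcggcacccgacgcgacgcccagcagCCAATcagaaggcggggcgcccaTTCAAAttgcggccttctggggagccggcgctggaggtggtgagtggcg
CEP55 (chr10:93496362-93496661, plus strand): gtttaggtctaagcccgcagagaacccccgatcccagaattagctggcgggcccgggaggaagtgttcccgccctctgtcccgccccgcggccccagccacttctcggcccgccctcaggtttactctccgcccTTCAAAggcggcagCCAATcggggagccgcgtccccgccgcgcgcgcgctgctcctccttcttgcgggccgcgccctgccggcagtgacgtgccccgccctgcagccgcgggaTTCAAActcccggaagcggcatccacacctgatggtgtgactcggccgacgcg
CCNB2 (chr15:59104896-59105195, plus strand): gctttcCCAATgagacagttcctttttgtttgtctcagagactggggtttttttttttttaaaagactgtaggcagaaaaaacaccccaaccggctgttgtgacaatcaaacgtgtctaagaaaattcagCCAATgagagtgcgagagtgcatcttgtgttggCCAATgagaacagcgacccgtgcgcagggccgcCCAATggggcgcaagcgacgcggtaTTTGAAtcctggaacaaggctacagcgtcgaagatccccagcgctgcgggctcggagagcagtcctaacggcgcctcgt
KIF23 (chr15:69414099-69414398, plus strand): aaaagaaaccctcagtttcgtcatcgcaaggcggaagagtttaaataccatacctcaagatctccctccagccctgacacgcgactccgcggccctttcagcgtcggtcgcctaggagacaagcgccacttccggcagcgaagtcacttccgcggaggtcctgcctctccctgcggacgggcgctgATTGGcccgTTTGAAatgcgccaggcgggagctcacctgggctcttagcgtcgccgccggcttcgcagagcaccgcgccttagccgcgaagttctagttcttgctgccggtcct

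Counting from the start, with no base 0, CENPK carries CCAAT or its complement at -99, -46 and -20 and no TTTGAA in the window, and NEK2 carries CCAAT at -66 and -34 with no TTTGAA. KIF14 has a box at -22 with TTCAAA from 2 to 7, and CEP55 a box at -102 with TTCAAA at -116 and again across the start. CCNB2 shows 4 CCAAT boxes at -244, -120, -87 and -54 and then TTTGAA at -29, and KIF23 a box at -64 and TTTGAA at -55. KIF14, CEP55, CCNB2 and KIF23 therefore hold both elements within 300 bases.

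Over the 20 called mitotic genes with a window, 70.0% held TTTGAA, 80.0% CCAAT and 60.0% both. The 57 tested members of the list with a window, called or not, gave 70.2%, 73.7% and 57.9%, so the called members did not stand out from their list by these letters. Among all 27305 windows of that length the shares were 15.4%, 35.7% and 6.08%, and among the 7869 windows of tested genes 9.80%, 37.7% and 4.24%. The 107 windows of genes that fell but are not on the mitosis list held TTTGAA in 9.35% and CCAAT in 43.9%, near the shares of tested genes. The E2F sequences TTTGGCGC or TTTCCCGC were in 9.45% of the 127 windows of genes that fell, in 2.94% of the 68 of genes that rose and in 3.93% of those of tested genes. The E-box CACGTG was in 6.30%, 16.2% and 10.8% and the CREB or ATF sequence TGACGTCA in 3.15%, 1.47% and 3.42% of the same sets. These are counts of letters on both strands, and they do not show that a factor is bound.

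Some called genes with known roles in mitosis are on no list. They were picked from the genes that fell, so their direction is fixed by the choice and adds nothing to the count above. STMN1, stathmin, which destabilises microtubules, stood at 10.38 and 10.06 in MDA-MB-231 controls against 9.09 and 9.65, and at 9.81 and 9.85 in HT1080 controls against 9.09 and 9.11. Its change was -0.79 (SE 0.118, limma adjusted p = 0.00631), with -0.35 from a further probe. STAG2, a cohesin subunit, changed by -0.59 (SE 0.0740, adjusted p = 0.00268). HJURP, the chaperone of the centromeric histone CENPA, was at -0.45 (adjusted p = 0.0399), the spindle proteins SPAG5 and PSRC1 at -0.39 and -0.44 (adjusted p = 0.0442 and 0.0326), and the centrosomal proteins STIL, WDR62 and CEP70 at -0.36, -0.36 and -0.35 (adjusted p = 0.0348, 0.0435 and 0.0486). A further PSRC1 probe changed by only -0.08. STMN1 and STAG2 were stable to leaving out an array, and each of the others lost its call without at least 6 of the arrays. All 4 siVRK1 arrays of CEP70 were below the filter level.

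On the G1/S and replication list 5 of 58 genes tested fell and none rose (8.62% called, against 2.45% of all genes), with a list median of -0.10 log2 and 46 negative changes. CCND1, cyclin D1, stood at 12.50 and 12.38 in MDA-MB-231 controls against 11.14 and 11.76, and at 11.79 and 11.93 in HT1080 controls against 10.93 and 11.01. Its change was -0.94 (SE 0.119, limma adjusted p = 0.00275). CDKN2D, the CDK4/6 inhibitor p19, moved the same way, from 8.48 and 8.54 to 7.64 and 7.93 in MDA-MB-231 and from 7.11 and 7.06 to 6.10 and 6.21 in HT1080 (change -0.83, SE 0.0885, adjusted p = 0.000943). PCNA, the replication clamp, fell by 0.77 log2 (adjusted p = 0.0103, with -0.36 from a further probe), GINS2 of the replicative helicase by 0.73 (adjusted p = 0.0194) and MCM10 by 0.58 (adjusted p = 0.0215). CCND1, CDKN2D and PCNA were stable to leaving out an array, while GINS2 lost its call without any of 5 and MCM10 without any of 6. The highest member, cyclin E1, CCNE1, was at 0.36 (adjusted p = 0.139).

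PARP1, the DNA damage sensor poly(ADP-ribose) polymerase, was the only gene called of 46 tested for damage signalling and repair (2.17%, against 2.45% of all genes). It stood at 10.37 and 10.11 in MDA-MB-231 controls against 9.15 and 9.63, and at 10.38 and 10.26 in HT1080 controls against 9.61 and 9.39. The change was -0.84 (SE 0.112, limma adjusted p = 0.00351) and stable to leaving out an array, with a list median of -0.05. Among 37 p53 targets and apoptosis genes only PMAIP1, the BH3-only protein NOXA, was called, at -0.48 (adjusted p = 0.0200), and it lost its call without MDA-MB-231 siVRK1 1 (0.0613), HT1080 control 2 (0.0892) or HT1080 siVRK1 2 (0.0731). With PMAIP1 alone, 2.7% of the p53 and apoptosis list was called, against 2.45% of all genes. CDKN1A, the p53 target p21, was at 0.02 (adjusted p = 0.970) and MDM2, below the filter level in MDA-MB-231, at 0.04 (adjusted p = 0.859).

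Of 42 immediate early genes and targets of ERK or AP-1, 5 fell and 1 rose (14.3% called, against 2.45% of all genes), and the list's median was 0.00 log2. The IL-6 family cytokine IL11 had the smallest p of all genes. It stood at 7.58 and 7.64 in MDA-MB-231 controls against 6.0 and 5.98, and at 8.93 and 9.04 in HT1080 controls against 7.53 and 7.86. The MDA-MB-231 siVRK1 values were below the filter level, so the fall in that line may be larger than measured. The shared change was -1.45 (SE 0.0976, limma adjusted p = 7.72e-05), stable to leaving out an array. It was the only gene called of 27 tested cytokines, chemokines and their receptors (3.7%), where IL6 was at 0.30 and not called (adjusted p = 0.426).

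Protease and receptor of the urokinase system both fell. PLAU, the protease urokinase, stood at 11.25 and 11.02 in MDA-MB-231 controls against 10.03 and 10.05, and at 12.40 and 12.33 in HT1080 controls against 12.14 and 11.69. Its change was -0.77 (SE 0.140, limma adjusted p = 0.0183), and it did not pass without MDA-MB-231 siVRK1 1 (0.0515), HT1080 control 1 (0.0501) or HT1080 siVRK1 2 (0.0681). PLAUR, the urokinase receptor, changed by -0.45 (SE 0.0773, adjusted p = 0.0126), with -0.31 and -0.40 from its further probes, and was lost without HT1080 control 2 (0.0653) or siVRK1 1 (0.0555). SPRY4, a feedback inhibitor of ERK signalling, changed by -0.46 (adjusted p = 0.0326). F3, tissue factor, rose, from 10.59 and 10.26 to 11.13 and 11.09 in MDA-MB-231 and from 7.46 and 7.5 to 7.71 and 7.95 in HT1080 (change 0.52, SE 0.104, adjusted p = 0.0286), with its call lost without any of 5 arrays. MYC had the highest change among the ERK and AP-1 genes, 0.54, and was not called (adjusted p = 0.144). Its MDA-MB-231 values overlapped, at 8.51 and 9.13 for control and 9.13 and 8.85 for siVRK1, and its HT1080 values did not, at 6.78 and 6.93 against 7.64 and 7.90. On a separate list of 30 proteases and inhibitors, PLAU, PLAUR and ZMPSTE24 made 3 falls and no rise (10.0% called, against 2.45% of all genes).

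The windows of the 3 called genes of the immediate early, ERK and AP-1 list that hold the AP-1 sequence TGANTCA are printed, whichever way the genes moved. Capitals mark TGANTCA, which reads the same on both strands apart from its middle base.
IL11 (chr19:55370414-55370713, minus strand): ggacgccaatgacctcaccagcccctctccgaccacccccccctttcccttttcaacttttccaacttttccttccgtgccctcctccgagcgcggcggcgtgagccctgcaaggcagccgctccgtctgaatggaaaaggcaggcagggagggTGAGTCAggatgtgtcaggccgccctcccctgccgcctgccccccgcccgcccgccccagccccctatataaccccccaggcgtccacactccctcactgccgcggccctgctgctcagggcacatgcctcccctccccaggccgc
PLAUR (chr19:43670120-43670419, minus strand): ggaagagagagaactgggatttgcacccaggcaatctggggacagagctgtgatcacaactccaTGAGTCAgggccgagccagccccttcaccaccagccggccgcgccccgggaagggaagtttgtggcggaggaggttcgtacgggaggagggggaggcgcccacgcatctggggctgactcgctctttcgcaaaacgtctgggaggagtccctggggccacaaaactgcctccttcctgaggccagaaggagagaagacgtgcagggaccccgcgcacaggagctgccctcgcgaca
F3 (chr1:94541710-94542009, minus strand): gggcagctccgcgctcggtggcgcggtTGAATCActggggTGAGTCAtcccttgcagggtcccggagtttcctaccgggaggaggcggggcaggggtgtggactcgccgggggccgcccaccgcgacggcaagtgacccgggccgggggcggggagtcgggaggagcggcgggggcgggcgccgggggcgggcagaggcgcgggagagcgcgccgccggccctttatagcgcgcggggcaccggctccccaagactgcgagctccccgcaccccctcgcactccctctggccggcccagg

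TGANTCA lies at -96 in IL11, at -186 in PLAUR, and at -223 and -210 in F3. IL11 and PLAUR fell and F3 rose, so the sequence did not go with 1 direction. It was in 4.72% of the windows of genes that fell, 5.88% of those that rose and 4.51% of those of tested genes.

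Among the genes that rose, CNN2 had the largest change. It encodes calponin 2, which binds actin filaments and restrains myosin. CNN2 stood at 7.5 and 7.58 in MDA-MB-231 controls against 8.93 and 9.00, and at 6.96 and 6.96 in HT1080 controls against 8.06 and 7.72. The change was 1.18 (SE 0.113, limma adjusted p = 0.000380), and a further probe gave 0.56. Of 47 actin cytoskeleton genes (6.38% called), CFL1, the actin-severing protein cofilin, also rose, by 0.59 (adjusted p = 0.00945), and lost its call without HT1080 control 2 (0.0533). PDLIM7, a LIM protein of actin filaments, fell by 0.48 (adjusted p = 0.0200), but its further probes changed by -0.05 and -0.08. Leaving out an array cost CNN2 no call. The 6.38% of actin cytoskeleton genes called compares with 2.45% of all genes.

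Transcriptional repressors and chromatin factors held several of the next largest rises. Of 49 tested on that list 5 rose and 1 fell (12.2% called, against 2.45% of all genes), with a list median of 0.01 log2. The list was chosen with earlier results of these data known, so this share may partly reflect that choice. FOXN3, a forkhead repressor linked to cell cycle checkpoints, stood at 7.19 and 7.17 in MDA-MB-231 controls against 8.35 and 8.15, and at 6.71 and 6.95 in HT1080 controls against 7.88 and 7.69. Its change was 1.01 (SE 0.0890, limma adjusted p = 0.000271). TCFL5, a helix-loop-helix factor, went from 8.44 and 8.57 to 9.80 and 9.57 in MDA-MB-231 and from 6.57 and 6.60 to 7.29 and 7.30 in HT1080 (change 0.94, SE 0.105, adjusted p = 0.00116). MXD4, which competes with MYC for its partner MAX, rose by 0.66 (SE 0.0989, adjusted p = 0.00674), and MORF4L1, a subunit of histone acetyltransferase and deacetylase complexes, by 0.61 (SE 0.0914, adjusted p = 0.00631). FOXN3, TCFL5, MXD4 and MORF4L1 were stable to leaving out an array.

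SNAI2, the repressor SLUG of epithelial genes, stood at 8.78 and 8.22 in MDA-MB-231 controls against 9.44 and 8.89, and at 7.24 and 7.23 in HT1080 controls against 8.07 and 8.24. The groups did not overlap, but MDA-MB-231 control 1 lay close under siVRK1 2. The change was 0.79 (SE 0.142, limma adjusted p = 0.0168), and each of the 4 HT1080 arrays decided the call, with adjusted p from 0.0585 to 0.0827 when it was left out. LCOR, a nuclear receptor corepressor, fell, from 8.98 and 8.92 to 7.66 and 7.88 in MDA-MB-231 and from 7.85 and 7.85 to 7.20 and 7.69 in HT1080 (change -0.79, SE 0.156, adjusted p = 0.0260). Its call was lost without any of 6 arrays. Outside the lists, GATAD2A, a subunit of the NuRD repressor complex singled out after its value was seen, rose by 0.58 (SE 0.0842, adjusted p = 0.00535) and was stable to leaving out an array.

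PLLP, plasmolipin, a membrane proteolipid first described in myelin, rose by 0.92. It stood at 6.92 and 7.14 in MDA-MB-231 controls against 8.28 and 8.07, and at 5.74 and 5.97 in HT1080 controls, below the filter level, against 6.69 and 6.39 (SE 0.120, limma adjusted p = 0.00313). It was the only gene called of 36 integrin, cadherin and junction genes (2.78%, against 2.45% of all genes). LRP8, a receptor for reelin and apolipoprotein E, went from 7.47 and 7.60 to 8.33 and 8.59 in MDA-MB-231 and from 8.62 and 8.74 to 9.31 and 9.06 in HT1080 (change 0.71, SE 0.110, adjusted p = 0.00733), while a further probe of LRP8 changed by 0.19. Both were stable to leaving out an array. HAS3, a hyaluronan synthase, rose by 0.63 (SE 0.117, adjusted p = 0.0200), and TGFA, a ligand of the EGF receptor, by 0.58 (SE 0.115, adjusted p = 0.0269). HAS3 was the only gene called higher among 36 matrix and hyaluronan genes (5.56% called, against 2.45% of all genes). HMMR, a hyaluronan receptor also on the mitosis list, was called lower, at -0.48 (limma adjusted p = 0.0341, further probe -0.44). TGFA was the only gene called among 36 growth factors and receptors (2.78%). AMY1A, an amylase, rose by 0.68 (adjusted p = 0.0126), but near-identical amylase genes could share its probe.

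A pair of GTPase genes on no list were singled out after their values were seen, and stand for no group. RAB7A, the GTPase of late endosomes, rose from 9.92 and 10.18 to 10.68 and 10.71 in MDA-MB-231 and from 10.72 and 10.77 to 11.38 and 11.29 in HT1080 (change 0.61, SE 0.0803, limma adjusted p = 0.00313). The siVRK1 values lay above the controls of each line, and RAB7A was stable to leaving out an array. CDC42, a GTPase of cell polarity, rose by 0.55 (adjusted p = 0.0342, further probe 0.23), and lost its call without any of 7 arrays.

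Other genes on no list that were stable to leaving out an array had varied functions. INTS9, an Integrator subunit, rose by 0.59 (SE 0.0827, limma adjusted p = 0.00410), and WBP1L, a membrane protein with motifs for WW domains, by 0.63 (SE 0.0797, adjusted p = 0.00276). GCNT2, the I-branching enzyme of poly-N-acetyllactosamine, fell by 0.76 (SE 0.114, adjusted p = 0.00674), though its further probe changed by -0.14. ALDH9A1, an aldehyde dehydrogenase, fell by 0.72 (SE 0.0840, adjusted p = 0.00168), and CPS1, the first enzyme of the urea cycle, by 0.61 (SE 0.0923, adjusted p = 0.00674). The MDA-MB-231 siVRK1 values of CPS1, 5.81 and 5.96, were below the filter level, so its fall may be understated. EIF2AK1, the haem-regulated kinase of translation factor eIF2, fell by 0.59 (SE 0.0811, adjusted p = 0.00410). H3-3B, a gene for histone H3.3, fell by 0.70 (SE 0.0955, adjusted p = 0.00410), with the caution that H3-3A and processed copies resemble it closely.

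Metabolic lists had single genes that moved and medians near 0. SMS, spermine synthase, fell by 0.90. It stood at 10.74 and 10.41 in MDA-MB-231 controls against 9.24 and 9.81, and at 10.77 and 10.98 in HT1080 controls against 10.13 and 10.12 (SE 0.131, limma adjusted p = 0.00535). With SFXN1 and SLC44A1 it made 3 falls and no rise of 30 polyamine, one-carbon and choline genes (10.0% called, against 2.45% of all genes), with a list median of -0.01. PGM2L1, which makes glucose 1,6-bisphosphate, was the only gene called of 43 for glycolysis, glycogen and hypoxia (2.33%), at -0.68 (SE 0.0762, adjusted p = 0.00116). Of 32 cholesterol and fatty acid genes (9.38% called), HMGCS1 (-0.92, adjusted p = 0.0498) and INSIG2 (-0.86, adjusted p = 0.00980) fell and LRP8 rose. HMGCS1, the HMG-CoA synthase of the sterol pathway, had MDA-MB-231 controls far apart, at 9.11 and 10.22, and lost its call without any of 5 arrays. INSIG2, which retains the SREBP complex in the endoplasmic reticulum, lost its call without HT1080 control 2 (0.0533). SMS and PGM2L1 were stable to leaving out an array.

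Several lists held 1 or 2 calls, and their shares are set against 2.45% of all genes. They were 3.45% for RNA splicing and RNA binding, 1.72% for ribosomal proteins and translation factors, and 1.92% for ribosome biogenesis. Ubiquitin ligases and the proteasome had 1.89%, and Notch, Wnt and Hippo genes 5.41%. RNA splicing and RNA binding had 2 of 58 called, PTBP3 (-0.78, limma adjusted p = 0.0348), a paralogue of the polypyrimidine tract binding protein, and the spliceosome subunit PRPF4 (-0.39, adjusted p = 0.0470). Cytosolic ribosomal proteins and translation factors had 1 of 58, EIF3A (0.51, adjusted p = 0.0194), and ribosome biogenesis 1 of 52, RRP15 (0.39, adjusted p = 0.0498). Ubiquitin ligases and the proteasome had 1 of 53, UBE2N (-0.46, adjusted p = 0.0116), a conjugating enzyme for lysine 63 chains. On the list of Notch, Wnt and Hippo genes YAP1, the Hippo effector, fell by 0.55 (adjusted p = 0.0231) and FZD8, a Wnt receptor, rose by 0.47 (adjusted p = 0.0215), out of 37 tested. YAP1 and FZD8 each lost their call without any of 6 arrays, and 1 MDA-MB-231 control of FZD8, at 5.94, was below the filter level.

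No member was called on 5 of the pathway lists, by limma at an adjusted p under 0.05. Their members with an unadjusted p under 0.05 numbered 6 for TGF-beta and SMAD genes, 3 for ER stress, 2 for heat shock proteins, 3 for mitochondrial respiration and 6 for interferon-stimulated genes. ER stress and amino acid response genes had 28 of 33 changes below 0 and a median of -0.19 log2 (MDA-MB-231 by itself -0.28, HT1080 -0.09). Their lowest member, the chaperone HSPA5, had a change of -0.55 (SE 0.336). In MDA-MB-231 it stood at 8.67 and 10.49 for control and at 8.26 and 9.48 after siVRK1. Replicates of both MDA-MB-231 groups thus differed by more than the change. Mitochondrial respiration genes had 47 of 56 changes above 0, with a small median of 0.06 log2, and no change over 0.33. The lists of TGF-beta and SMAD genes (19 tested, median 0.06), heat shock proteins and chaperones (38 tested, -0.02) and interferon-stimulated and antigen presentation genes (45 tested, 0.04) had no called member either. ID3, the highest of the SMAD list at 0.58 (adjusted p = 0.359), had opposite changes in the lines, 1.38 in MDA-MB-231 and -0.22 in HT1080.

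**Figure D5:**
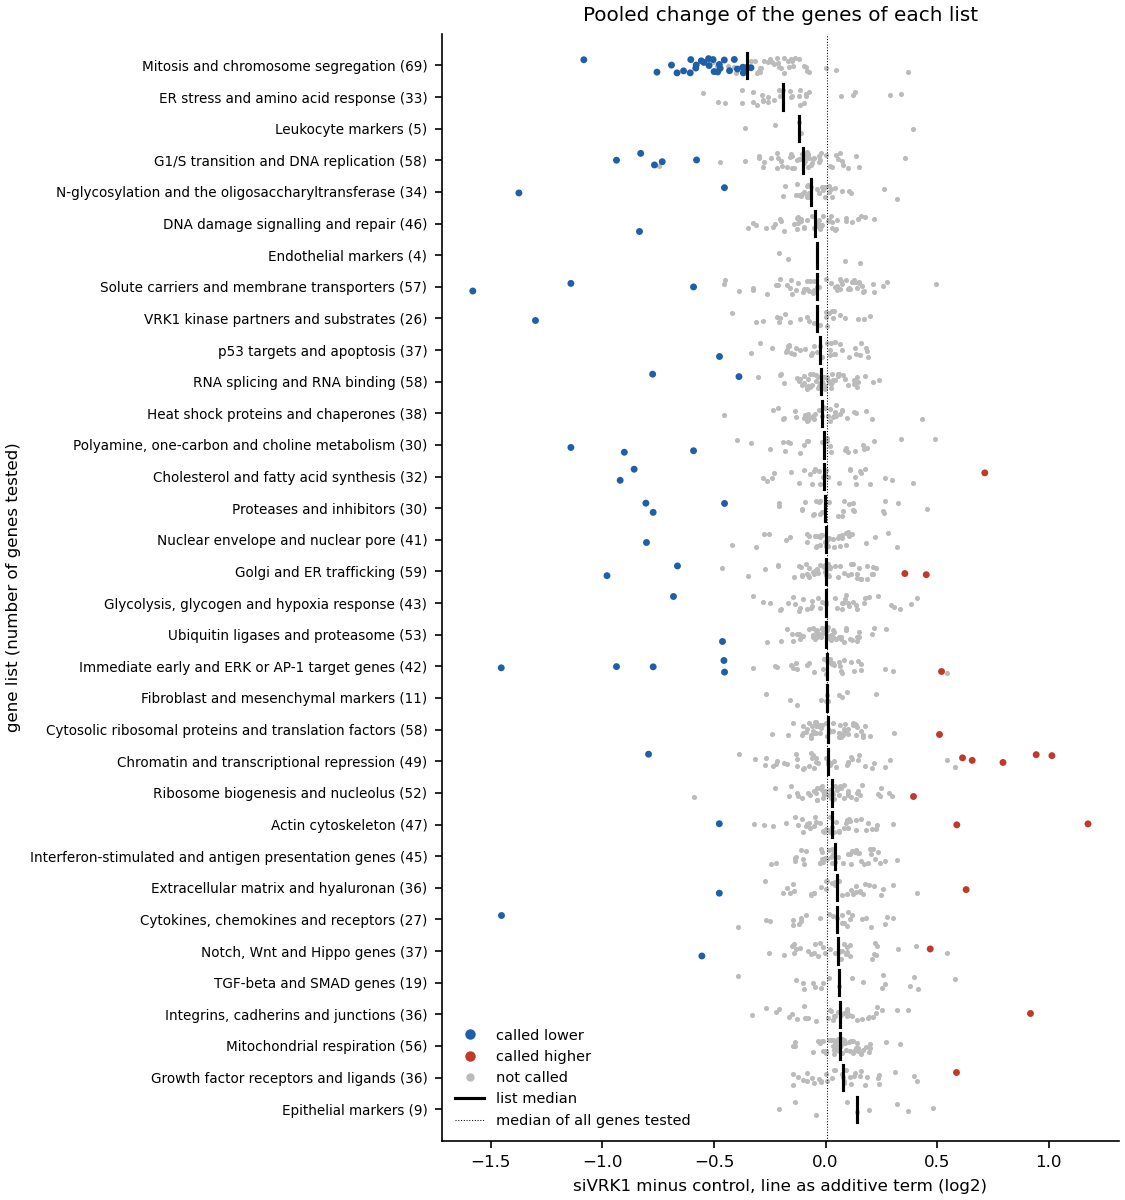
Shared change of each tested gene (horizontal axis, log2) on the 34 gene lists (vertical axis, number of genes tested in brackets), ordered by the list median, which is the black bar. Blue points were called lower, red points called higher and grey points not called, and the dotted line is the median of all genes tested. The mitosis list lies furthest to the left with 26 blue points, while most medians lie within 0.1 log2 of the dotted line.

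The lines differed most, among called genes, in PTBP3, LCOR, TMEM71, PLAU and HAS3. PTBP3 changed by -1.21 in MDA-MB-231, from 9.97 and 9.98 to 8.53 and 9.02, and by -0.35 in HT1080, from 9.45 and 9.65 to 9.16 and 9.25. HAS3 did the reverse, changing by 0.33 in MDA-MB-231, from 5.91 and 5.87 to 6.16 and 6.27, and by 0.93 in HT1080, from 7.15 and 7.16 to 8.0 and 8.18. The MDA-MB-231 controls of HAS3 were below the filter level, so that its MDA-MB-231 change may be understated, which was not tested. LCOR changed by -1.18 and -0.41 in MDA-MB-231 and HT1080, TMEM71, a membrane protein, by -1.16 and -0.50, and PLAU by -1.10 and -0.45. The HT1080 siVRK1 arrays of TMEM71, at 5.82 and 5.92, were below the filter level, so that its HT1080 change may be understated too. For none of the 5 was the difference called (limma adjusted p from 0.568 to 0.778).

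With the spread common to both lines, the 16 genes called in each line and in the shared fit were IL11, CENPK, VRK1, YIPF6, SLC2A3, KIAA1191, PRRG1, ZMPSTE24, CDKN2D, NEK2, PGM2L1, SLC44A1 and OSTC, which fell, and FOXN3, CNN2 and TCFL5, which rose. All 16 were also stable to leaving out an array in the shared fit. None was called in the MDA-MB-231 arrays fitted by themselves, where no gene was. In 11 of them the changes of the lines lay within 0.25 log2 of each other, and the widest gap was 0.50 log2.

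Where a called gene had a further probe above the filter, that probe mostly moved the same way but less. For 39 called genes 48 further probes were kept, and 43 had the same sign, 21 of them with an unadjusted limma p under 0.05, while 20 had at least 50% of the change. The opposite sign came from GNA12 (-0.07), KIF1B (-0.06) and MAPKAP1 (-0.19), which rose by their brighter probes, and from RAB3IP (0.14) and SERINC3 (0.15), which fell by theirs. For these 5 genes the direction depends on the probe. By its brighter probe GNA12 was stable to leaving out an array.

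Markers of other cell types gave no call by limma, with 3 epithelial, 1 mesenchymal, 3 leukocyte and 1 endothelial marker at an unadjusted p under 0.05. Of 14 leukocyte markers with a probe, 5 were tested, and PTPRC, CD3D, CD3E and CD79A were among the 9 below the filter level on every array. Their log2 levels summed to 92.15 to 92.25 in MDA-MB-231 controls and 90.33 to 91.72 after siVRK1, and to 88.46 to 89.35 and 88.93 to 89.21 in HT1080. Of 11 endothelial markers 4 were tested, and VWF, KDR and CDH5 were among the 7 below the filter level. Their sums were 67.18 to 67.77 and 67.32 to 67.42 in MDA-MB-231, and 69.16 to 69.32 and 68.67 to 69.1 in HT1080. Other members of both lists lay above the filter level, among them the integrin ITGB2 and LAPTM5 of the leukocyte list on all arrays and ENG and TIE1 of the endothelial list in HT1080, and their part in the shared changes was not tested.

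Of 20 epithelial markers 9 were tested, and EPCAM, KRT5 and KRT14 were among the 10 below the filter level on every array. Their log2 levels summed to 132.5 to 134.3 in MDA-MB-231 controls and 134.7 to 137.0 after siVRK1, with 119.9 to 120.5 and 119.8 to 120.3 in HT1080. Of 20 fibroblast and mesenchymal markers 11 were tested, and DCN, LUM and COL3A1 were among the 8 below the filter level. Their sums were 137.0 to 137.9 and 138.0 to 138.9 in MDA-MB-231, and 138.0 to 138.7 and 137.4 to 138.2 in HT1080. The epithelial and mesenchymal sums were higher after siVRK1 in MDA-MB-231 and not in HT1080, where the ranges overlapped, and their part in the shared changes was not tested.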

How the data were processed

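Transcript levels were measured on 8 Illumina bead arrays, 2 in each of 4 groups. The deposited table holds 24526 probes as log2 values made with GenomeStudio, per the submitters' processing notes, which name no version here; the aligner, build and normalization are not given in the sources used here. All arrays shared nearly the same distribution (largest quantile difference 0.00305 log2), so the log2 values deposited by the authors were used unchanged. They still hold background, which percentages of control therefore include. Bead array intensities carry no read depth, and the number of arrays limits the precision.

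Probes were named through the platform annotation (21834 with 1 symbol, 0 with several, 2692 with none, of which the last are unnamed here), and symbols were updated through a GRCh38.p14 gene table, used for names alone, in which 21813 were found. A probe was kept when its highest group mean reached the median of all probes (6.08 log2), which left 12263, and the brightest kept probe stood for a gene, which left 9451. Below that level a value was taken as background. The model had line and treatment as terms (limma 3.58.1 in R 4.3.3, 5 residual degrees of freedom), with Benjamini-Hochberg adjustment over all 9451 genes and a call at 0.05. Within-line changes came from a fit with a mean per group. The model was tested on simulated data. Alternatives were other models, filters, probe rules and scalings, and each array left out. Python 3.11.15 with pandas 2.3.3 and matplotlib 3.10.9 drew the figures.

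The comparison and the 34 lists (1549 symbols, 116 of them without a named probe, 1248 tested) were chosen with earlier results of these data known. Genes to name were VRK1 and the 20 largest called rises and falls with siVRK1 arrays beyond the controls in each line. To these came up to 6 called members and both extremes of a list, and the 5 called genes that differed most between lines. Not all of them are described, and others were chosen after their values were seen. Same-numbered replicates correlated in their deviations from the group means at 0.485 (MDA-MB-231) and -0.048 (HT1080) and were not treated as pairs. Promoter windows are from RefSeq. For a gene with several starts the window listed first was used.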

Additional observations from a re-analysis of the deposited data

Results flagged for a closer look

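Probes without a gene name were outside the comparison of genes. Of 1103 such probes above the filter level, 17 were called in the same limma model when it was fitted over all kept probes, 6 higher and 11 lower. That is 1.54% of them, against 2.02% (225 of 11160) of the named probes. The unnamed probe with the smallest p, ILMN_1654543, fell by 1.22 log2 (adjusted p = 4.38e-05), from 10.1 and 10.1 to 8.79 and 9.01 in MDA-MB-231 and from 10.5 and 10.4 to 9.21 and 9.23 in HT1080. What these probes measure was not tested.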

How the results depend on the processing

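The 232 calls (80 higher, 152 lower) became 240 with a mean per group, 209 with an intensity trend, 232 with a robust prior, 299 with array weights, 217 with no filter (16922 genes), 219 with a stricter filter (5089 genes), 220 when a gene's probes were averaged and 232 after a further quantile normalization. They became 96 (27 higher, 69 lower) with line as a random block, 138 (39 and 99) after background subtraction, and 19 (4 and 15) when a fold over 1.2 was tested. With an array left out they ran from 64 to 218 (17 to 66 higher, 47 to 152 lower). MDA-MB-231 arrays alone gave 0 calls by limma (918 at an unadjusted p under 0.05) and HT1080 arrays alone 84 (23 higher, 61 lower), 62 of them among the 232; fewer arrays enter those fits. Same-numbered replicates deviated together in MDA-MB-231 (0.485) and not in HT1080 (-0.048), and the labels give no pairing; with the replicate block there were 287 calls (107 higher, 180 lower). No called gene changed sign. Leaving aside the fold test and the fits of a single line, 11 other settings of the model, filter or scaling were tried. In these, 83 of 232 were called in every setting in which they were tested, and 50 also without each array. The mitosis list had 26 called members, 18 with line as a random block, 16 after background subtraction, 2 at a fold over 1.2, 0 in MDA-MB-231 alone and 10 in HT1080 alone. Among uncalled genes, the sign turned for MAD1L1 (-0.00014) and NDUFB10 (0.048) in MDA-MB-231 alone, for ID3 (-0.22), CST1 (-0.027) and CDH11 (-0.089) in HT1080 alone, and for VEGFA without MDA-MB-231 control 2 (0.0027, against -0.27 without control 1, the range over arrays left out). The cause of these changes was not tested. Values near the filter level, such as HAS3 in MDA-MB-231, may understate changes, which was not tested, and 2 arrays per group limit what can be called.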
